A study of Mus musculus with 12 samples.

Results

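The genes described here encode the nuclear subunits of the 5 complexes of oxidative phosphorylation, followed in bulk RNA-seq of mouse brain. They were chosen by name and mean level, with earlier results of these data known. The names were those of complex I (Ndufa, Ndufb, Ndufc, Ndufs and Ndufv genes), complex II (Sdha to Sdhd), complex III (Uqcr genes), complex IV (Cox4 to Cox8 genes) and complex V or ATP synthase (Atp5 genes). The level was a mean of at least 1 CPM over the libraries. CPM are counts scaled to the assigned reads of each library after TMM adjustment of those totals. Of the 21983 genes in the count table, 84 carried such a name and 78 reached that level: 36 of complex I, 4 of complex II, 7 of complex III, 15 of complex IV and 16 of complex V. The study held 12 brain libraries from wild-type C57BL/6 mice aged 6 weeks. There were 4 libraries from normal mice (control), 4 from mice with experimental cerebral malaria (ECM), and 4 from ECM mice given artesunate, an antimalarial drug, for 4 days (treated ECM). The sources used here do not give the parasite, its dose or the day on which brains were taken, nor whether each library came from a separate mouse. The p-values below therefore measure the spread between these libraries, which may be technical in part.

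Oxidative phosphorylation takes place in the inner mitochondrial membrane. Complexes I and II pass electrons from NADH and succinate to ubiquinone, complex III passes them on to cytochrome c, and complex IV hands them to oxygen. Complexes I, III and IV pump protons as they do so, and ATP synthase uses the returning protons to make ATP. Most subunits are encoded in the nucleus and imported, whereas a small hydrophobic core, present in every complex but complex II, is encoded by mitochondrial DNA. Brain depends heavily on this pathway, because neurons spend much ATP on ion gradients and synaptic transmission. Names in the files are older ones in places: Ndufa4 is now counted with complex IV, Cox7a2l is a factor of respiratory supercomplexes, and Atp5s is related to a coupling factor of ATP synthase. Genes are grouped here by name, so that Ndufa4 enters the counts, medians and sums of complex I.

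The libraries held between 13342177 and 18886822 assigned reads. Reads of mitochondrially encoded genes made up 10.7% of control 4, 15.2% of ECM 2 and 13.2% of ECM 3, against 4.74% to 7.89% of the other libraries. In the same 3 libraries, levels over all genes were lower the higher the GC content of the transcript. The slope of the log2 deviation per 10 percentage points of GC was -0.73 in control 4, -0.37 in ECM 2 and -0.47 in ECM 3, against -0.01 to 0.34 elsewhere. Values without these 3 libraries, which leave 3 control and 2 ECM libraries, stand beside many of the results that rest on them, though not beside all. Markers of neurons summed to between 5613 and 8765 CPM in every library, so markers of the labelled tissue were present, whereas 8 markers of cerebellum ranged from 41.7 CPM in ECM 3 to 2667 CPM in ECM 2, so the libraries held unequal amounts of that region's RNA. Leaving out the 3 libraries made the groups less equal in this respect. The mean cerebellum sum in ECM was 0.761 times that in control with all libraries and 0.296 times without those 3.

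Compared per kilobase of exon, which allows genes of different length to be set side by side, the subunits of one complex differed widely in mean level. In complex IV, Cox8a stood at 494 CPM per kb, Cox6a1 at 431 and Cox4i1 at 345. Atp5b, the catalytic beta subunit of ATP synthase, stood at 315 CPM per kb and Atp5c1, the gamma subunit of its rotating shaft, at 126. Of the genes named for complex I, Ndufa4 had the highest level (157 CPM per kb). In complex II, Sdha, the flavoprotein that oxidises succinate, stood at 123 CPM per kb, above the membrane anchor Sdhd at 59.1, the iron-sulfur subunit Sdhb at 53.6 and the anchor Sdhc at 24.2. In complex III, Uqcr10 (141 CPM per kb) and Uqcrh, the hinge protein (106), were highest and Uqcrq (50.1) lowest. The lowest of complexes I, IV and V were Ndufa4l2 (1.80 CPM per kb), Cox6b2 (1.82) and Atp5l (0.534). These orders depend on the length used. Per kb of the longest transcript, Cox4i1 stood at 699 CPM, above Cox6a1 at 488. On that scale Atp5b stood at 696, and Atp5c1, at 138, lay below Atp5g3 at 203.

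The level threshold left 6 names outside. Cox7b2, a testis isoform, was nearest below it at 0.398 CPM, and Cox8b, a muscle isoform, had 0.219 CPM, while Atp5g2 at 1.42 CPM and Cox7a1 at 1.43 CPM were nearest above. Cox8c, another testis isoform, had no reads. The other 3 are no isoforms but required parts of their complexes: Ndufs3 had no reads, and Atp5a1 (the alpha subunit of ATP synthase) and Uqcrc1 (a core subunit of complex III) had 3 reads each over all libraries. Gapdh, the glycolytic enzyme, was also low, at 3.96 ± 0.814 CPM in controls (SD, n = 4). Why these genes are nearly empty in the deposited table was not tested, and a low value of such a gene is not read here as low expression. Atp5l, at 2.47 ± 0.02 CPM in controls (SD, n = 4), is another required subunit with a low value.

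Few subunit genes passed the test in any comparison. In ECM against control, edgeR's quasi-likelihood test with Benjamini-Hochberg adjustment over 14621 genes called 2 of the 78 (adjusted p below 0.05), where 10.3% of all genes were called. Ndufs6 was the higher one (7.00% of all genes were called higher) and Ndufb2 the lower (3.28% were called lower). Treated ECM against ECM had 1 call, Ndufb2, where 8.40% of all genes were called; it was higher (3.32% of all genes), and no member was lower (5.07% of all genes). Treated ECM against control also had 1, Ndufa2, where 2.04% of all genes were called; it was higher (1.98% of all genes), and no member was lower (0.0547% of all genes). At an unadjusted p below 0.05 the counts were 10, 14 and 18 of 78, with 22.7%, 25.9% and 11.4% of all genes. In brain tissue measured in bulk, fewer cells of a type and less RNA per cell cannot be told apart.

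The direction of the differences, most of them small, was less even. In ECM against control, 70 of 78 members had a log2 fold change above 0, where 47.5% of all genes did. The count was 49 for treated ECM against ECM (50.9% of all genes), and 62 for treated ECM against control (50.4% of all genes). The median log2 fold change over the members was 0.19, 0.07 and 0.32 in these comparisons, against -0.02, 0.01 and 0.00 over all genes. The first of these medians leaned on ECM 2: it was 0.04 without that library. The second was -0.01 without ECM 3 and 0.24 without ECM 2. Without control 4, ECM 2 and ECM 3 together, the counts above 0 were 48, 65 and 64 of 78 and the medians 0.06, 0.18 and 0.24. The comparisons share libraries, so the medians are not independent of each other. Short genes in general also stood higher in ECM against control. The 517 genes tested with a longest transcript of at most 988.5 bases, the median of the members, had a median of 0.26, and the longer genes -0.04. Members up to that length had 0.20 and the longer members 0.14. In treated ECM against ECM, the medians were 0.07 and 0.01 in all genes, and 0.30 and 0.02 in the members.

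**Figure D1:**
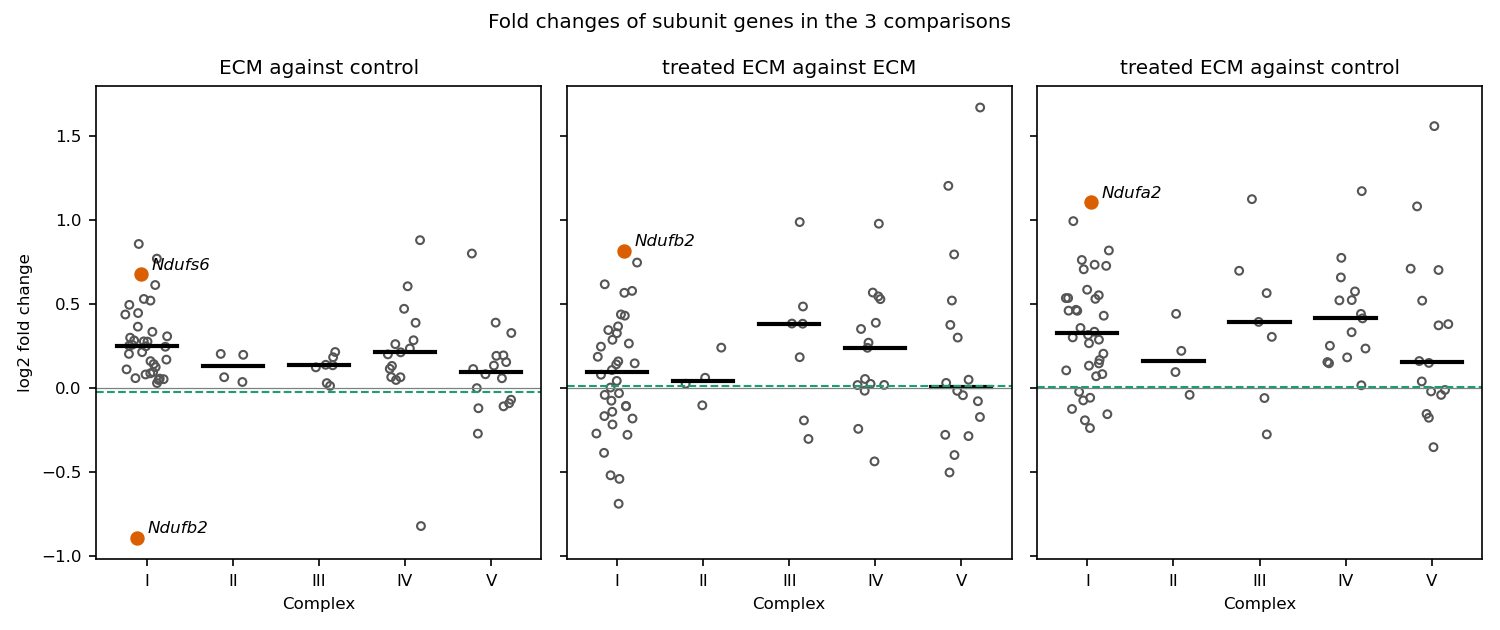
Log2 fold change (y axis) of each of the 78 subunit genes by complex (x axis) in the 3 comparisons. Each circle is a gene, filled where its adjusted p was below 0.05, black bars are medians of a complex, and the dashed line is the median of all genes tested; the medians of complexes III and IV in treated ECM against control, 0.39 and 0.41, stand above that line.

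Ndufb2, an accessory subunit in the membrane arm of complex I, fell in ECM and was higher again in treated ECM. In the order of the library numbers, its level was 16.8, 16.5, 16.7 and 17.6 CPM in controls, 7.97, 13.4, 8.89 and 6.19 CPM in ECM, and 15.8, 16.5, 12.4 and 19.3 CPM in treated ECM. All 4 ECM libraries lay below all controls, while treated 3 lay within the ECM range and the other treated libraries lay above it. The log2 fold change was -0.89 ± 0.22 (SE) in ECM against control (edgeR adjusted p = 0.0212) and 0.82 ± 0.22 in treated ECM against ECM (edgeR adjusted p = 0.0403). Treated ECM against control gave -0.08 ± 0.22 (edgeR adjusted p = 0.887). On leaving out single libraries the first call held in 5 of 8 fits and the second in 1 of 8, and without ECM 4, the lowest library, they were -0.74 ± 0.21 (edgeR adjusted p = 0.0509) and 0.67 ± 0.21 (edgeR adjusted p = 0.0579). Without control 4, ECM 2 and ECM 3 the first difference was -1.24 ± 0.19 (edgeR adjusted p = 0.00178) and the second 1.18 ± 0.19 (edgeR adjusted p = 0.00348). The gene lies on chromosome 6 of GRCm38 (chr6:39592574-39603382, plus strand), and 2.59% of its exon bases overlap Braf on the opposite strand and 2.58% overlap Gm42420 on the same strand. Since the counting is not stated to use strand, reads there cannot be assigned with certainty.

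Ndufs6, a zinc-binding accessory subunit of complex I, rose in ECM. Its level was 26.8, 28.2, 28.5 and 35.8 CPM in controls, 34.4, 62.5, 46.0 and 47.7 CPM in ECM, and 48.9, 46.5, 36.1 and 41.0 CPM in treated ECM. ECM 1 lay within the control range and the other ECM libraries lay above it, whereas all treated libraries lay above all controls. The log2 fold change was 0.68 ± 0.19 (SE) in ECM against control (edgeR adjusted p = 0.0340) and 0.53 ± 0.19 in treated ECM against control (edgeR adjusted p = 0.280). Treated ECM against ECM gave -0.14 ± 0.18. The call in ECM held in 3 of the 8 fits that left out a single library. Without ECM 2, the highest library, the log2 fold change was 0.52 ± 0.16 (edgeR adjusted p = 0.0660). Leaving out control 4, ECM 2 and ECM 3 together gave 0.57 ± 0.16 (edgeR adjusted p = 0.0327). The gene lies at chr13:73319838-73328542 on the minus strand of GRCm38, and 30 bases of its exons overlap Mrpl36, a mitochondrial ribosomal protein gene on the other strand.

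Ndufa2, an accessory subunit in the matrix arm of complex I, rose in treated ECM against control. Its level was 33.3, 40.6, 29.1 and 22.9 CPM in controls, 31.3, 53.7, 29.8 and 66.7 CPM in ECM, and 73.9, 70.6, 60.3 and 66.0 CPM in treated ECM. All treated libraries lay above all controls, and ECM was split, with ECM 1 and ECM 3 within the control range and ECM 2 and ECM 4 above it. The log2 fold change was 1.10 ± 0.26 (SE, edgeR adjusted p = 0.0424) in treated ECM against control, 0.53 ± 0.25 in ECM against control (edgeR adjusted p = 0.240) and 0.58 ± 0.25 in treated ECM against ECM (edgeR adjusted p = 0.172). With the GC slope of each library as a covariate, the difference between treated ECM and control was 0.87 ± 0.23 (edgeR adjusted p = 0.105), and on leaving out single libraries the call held in 1 of 8 fits, with adjusted p up to 0.152. With control 4, ECM 2 and ECM 3 all left out it was 0.97 ± 0.22 (edgeR adjusted p = 0.0405). In all, 11.5% of its exon bases overlap Tmco6 on the opposite strand.

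**Figure D2:**
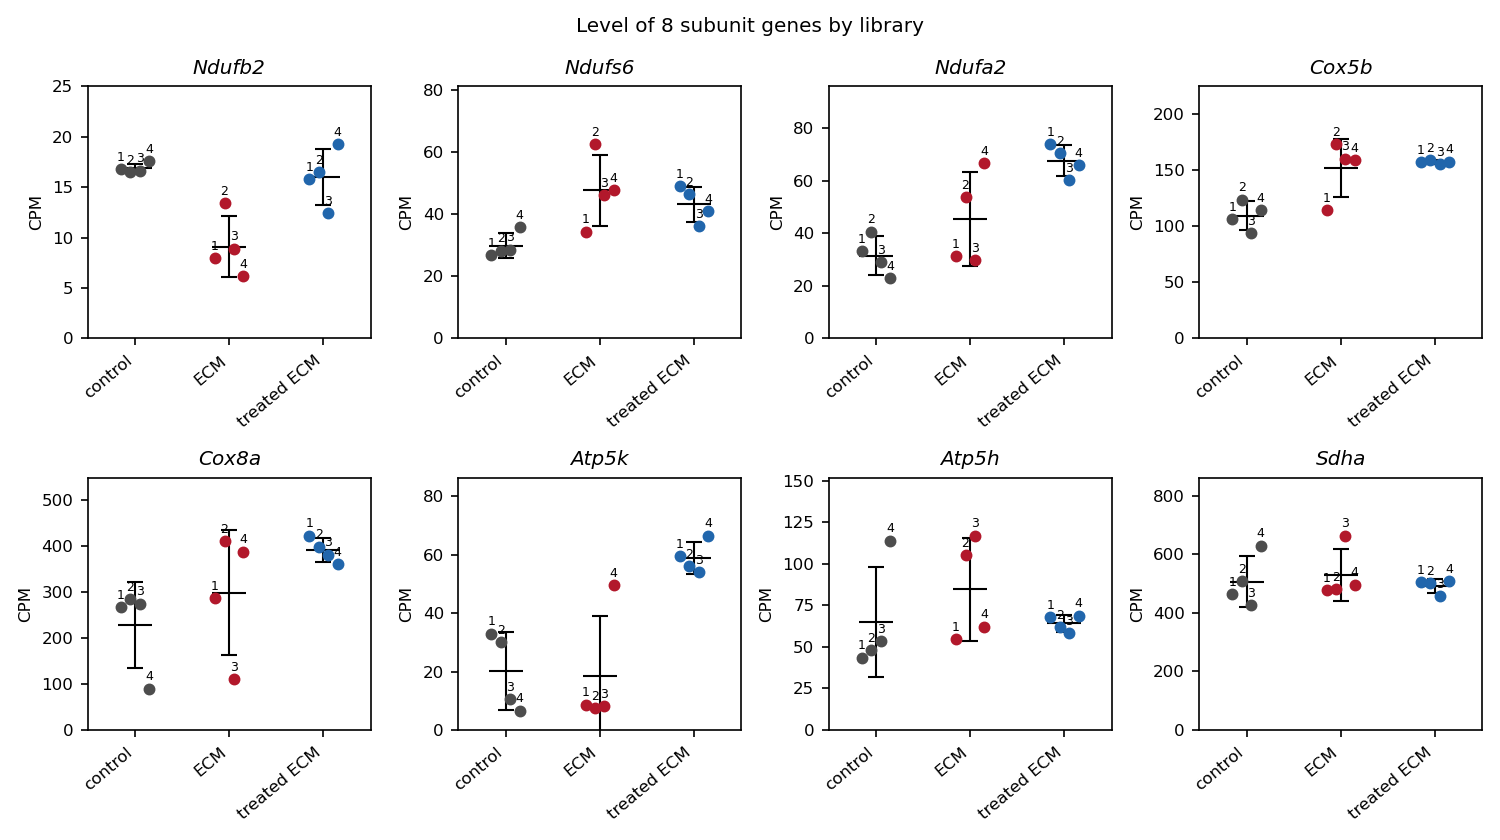
CPM (y axis) of 8 subunit genes in the 12 libraries by group (x axis). Points are libraries labelled with their number, and black bars are the mean and SD of 4 libraries; Ndufb2 shows all ECM libraries below all controls, and Cox8a and Atp5k show all treated libraries above all controls.

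Separation of the groups was commoner than calls in treated ECM against control. In 32 of the 78 members (41.0%) every treated library lay above every control, where 10.8% of all genes did. These were 15 of 36 in complex I, 1 of 4 in complex II, 3 of 7 in complex III, 7 of 15 in complex IV and 6 of 16 in complex V. Atp5s alone had every treated library below every control, where 8.28% of all genes did. Without control 4, ECM 2 and ECM 3 the count above was 39, where 12.7% of all genes did. The share was not even over transcript lengths. Members whose longest transcript was at most 988.5 bases, the median length of the members, separated this way in 51.3% of cases and the longer members in 30.8%. Over all genes tested the shares were 33.3% of 517 genes up to that length and 9.96% of the longer ones. The subunit genes are short, with that median against 3451 bases over all genes.

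Fold changes in this comparison followed length and GC content in the same way. Median log2 fold changes were 0.46 in the shorter members and 0.20 in the longer, against 0.37 and -0.01 in all genes split at the same length. Split at the members' median GC of 50.2%, they were 0.43 at or above it and 0.25 below, against 0.21 and -0.19 in all genes. The part of length and GC content in the members' higher levels was not tested.

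The other comparisons separated fewer members. In ECM against control, 4 members had every ECM library above every control (8.54% of all genes did): Ndufa9, Ndufb4, Cox4i2 and Atp5l. Ndufb2 alone lay below (5.79% of all genes did). Between treated ECM and ECM, 9 members lay above (11.5% of all genes did): Ndufa3, Ndufa8, Ndufb10, Ndufb3, Uqcr11, Cox6a1, Atp5d, Atp5e and Atp5k. None lay below, where 10.5% of all genes did. These genes, and others below that the naming rule does not reach, were chosen after their values were seen.

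Removing the 3 libraries with many mitochondrial reads raised the number of calls. Against control, 11 members were then called in treated ECM, all higher: Uqcrq, Cox6a1, Cox8a, Cox5b, Atp5e, Ndufs6, Ndufa2, Ndufa3, Ndufa8, Ndufa13 and Ndufb3, where 3.17% of all genes were called in either direction. Against ECM, 7 were called higher: Atp5g1, Atp5d, Atp5e, Uqcrq, Ndufc1, Ndufb2 and Ndufb3 (15.4% of all genes in either direction). In ECM against control, Ndufs6 and Ndufb9 were called higher and Ndufb2 and Atp5s lower (18.8% of all genes in either direction). That set of libraries was defined after the data were seen, by mitochondrial reads and GC slope.

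The core subunits of complex I carry its flavin, its iron-sulfur clusters and the ubiquinone site, and none of the 6 tested was called in any comparison. Ndufv1, which binds the flavin, stood at 130, 127, 122 and 51.6 CPM in controls, 131, 124, 82.2 and 172 CPM in ECM, and 166, 152, 147 and 156 CPM in treated ECM. Control 4 was far below the other controls, and all treated libraries lay above all controls, yet the log2 fold change was 0.53 ± 0.27 (edgeR adjusted p = 0.461), and 0.29 ± 0.10 (edgeR adjusted p = 0.155) without the 3 libraries that stand apart. Ndufs1, the largest iron-sulfur subunit, averaged 210 ± 19.3, 222 ± 28.6 and 184 ± 12.1 CPM in control, ECM and treated ECM (SD, n = 4 each). Ndufv2 averaged 160 ± 39.3, 195 ± 64.0 and 136 ± 11.1 CPM, with its highest values in control 4 (218), ECM 2 (279) and ECM 3 (207). The groups of these genes overlapped, as did those of Ndufs7 (83.7 ± 15.9, 99.5 ± 39.9 and 107 ± 9.62 CPM). Ndufs8 had 67.9 ± 5.02, 74.9 ± 8.79 and 82.8 ± 5.31 CPM, and its treated libraries lay above its controls by a log2 fold change of 0.29 ± 0.13 (edgeR adjusted p = 0.421).

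Accessory subunits of complex I surround the core and aid its assembly and stability. By name, 30 members were grouped as accessory, Ndufa4 and Ndufa4l2 among them. Their median log2 fold change was 0.26 in ECM against control, 0.06 in treated ECM against ECM and 0.38 in treated ECM against control. Ndufa8 is one whose treated libraries stood clear of both other groups. It had 65.1, 63.7, 58.1 and 46.2 CPM in controls, 61.8, 83.6, 52.1 and 84.6 CPM in ECM, and 94.1, 101, 94.1 and 90.2 CPM in treated ECM. Its log2 fold change of 0.70 ± 0.17 in treated ECM against control missed the threshold narrowly (edgeR adjusted p = 0.0598). Ndufb9 followed the 3 libraries with many mitochondrial reads. It had 29.1, 31.2, 25.1 and 45.1 CPM in controls, 38.7, 84.4, 74.4 and 38.6 CPM in ECM, and 33.8, 34.6, 36.4 and 41.4 CPM in treated ECM, with control 4, ECM 2 and ECM 3 the highest of all. Its log2 fold change in ECM against control was 0.85 ± 0.27 (edgeR adjusted p = 0.0593) over all libraries and 0.44 ± 0.13 (edgeR adjusted p = 0.0347) without those 3. Of the exon bases of Ndufb9, 19.5% overlap Gm49356 on the same strand, so reads there cannot be assigned with certainty.

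Complex II, the succinate dehydrogenase shared with the citric acid cycle, is the only complex with no mitochondrially encoded subunit, and none of its members was called. Sdha had 465, 508, 425 and 629 CPM in controls, 477, 480, 663 and 497 CPM in ECM, and 505, 500, 456 and 507 CPM in treated ECM. Control 4 and ECM 3 were the high libraries, and the groups overlapped. The log2 fold changes of Sdha were 0.06 ± 0.16, -0.10 ± 0.16 and -0.04 ± 0.16 for ECM over control, treated ECM over ECM and treated ECM over control, an order kept below. Sdhb averaged 109 ± 11.9, 125 ± 16.4 and 127 ± 12.4 CPM in control, ECM and treated ECM (SD, n = 4 each), and Sdhc averaged 76.2 ± 15.8, 78.0 ± 20.5 and 81.3 ± 7.99 CPM. Sdhd was the member with separated groups, at 77.0, 75.1, 62.9 and 34.0 CPM in controls, 63.6, 101, 40.6 and 81.3 CPM in ECM, and 86.2, 80.4, 83.8 and 87.4 CPM in treated ECM. Between treated ECM and control its log2 fold change was 0.44 ± 0.27 (edgeR adjusted p = 0.517), and 0.23 ± 0.11 (edgeR adjusted p = 0.267) without control 4, ECM 2 and ECM 3.

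In complex III no member was called, and the largest fold change between treated ECM and control was that of the small subunit Uqcr11. Uqcr11 had 50.7, 58.8, 41.6 and 14.9 CPM in controls, 38.4, 49.2, 17.7 and 76.9 CPM in ECM, and 94.1, 97.3, 84.7 and 85.3 CPM in treated ECM. All treated libraries lay above all others, and control 4 and ECM 3 were lowest. Its log2 fold change was 1.12 ± 0.41 in treated ECM against control (edgeR adjusted p = 0.318) and 0.99 ± 0.41 in treated ECM against ECM (edgeR adjusted p = 0.149). These were 0.84 ± 0.20 (edgeR adjusted p = 0.0573) and 0.63 ± 0.23 (edgeR adjusted p = 0.0896) without control 4, ECM 2 and ECM 3. Uqcrq, which sits beside cytochrome b, averaged 72.8 ± 16.6, 84.4 ± 24.2 and 118 ± 11.5 CPM in control, ECM and treated ECM (SD, n = 4 each). Uqcr10 averaged 68.2 ± 23.4, 77.3 ± 25.2 and 101 ± 8.17 CPM, and Uqcrh 119 ± 20.6, 120 ± 28.7 and 156 ± 17.8 CPM. Uqcrb went the other way in the libraries that stood apart. It had 35.7, 38.6, 34.8 and 90.8 CPM in controls, 36.5, 62.5, 68.3 and 36.4 CPM in ECM, and 44.9, 36.1, 40.1 and 43.8 CPM in treated ECM, so that control 4, ECM 3 and ECM 2 were its highest libraries.

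In complex IV all 15 members had a log2 fold change above 0 in treated ECM against control, with a median of 0.41. Cox5b, a zinc-binding structural subunit, had 106, 123, 93.7 and 114 CPM in controls, 114, 173, 160 and 159 CPM in ECM, and 157, 158, 155 and 157 CPM in treated ECM. The treated libraries lay within a few CPM of each other and above all controls, and ECM 1 stood in the control range. The log2 fold change was 0.52 ± 0.15 (edgeR adjusted p = 0.134) in treated ECM against control and 0.47 ± 0.15 (edgeR adjusted p = 0.0642) in ECM against control. Without control 4, ECM 2 and ECM 3 these were 0.54 ± 0.12 (edgeR adjusted p = 0.0451) and 0.34 ± 0.15 (edgeR adjusted p = 0.132). Cox8a, a small structural subunit, had 266, 283, 274 and 89.4 CPM in controls, 287, 410, 110 and 387 CPM in ECM, and 422, 398, 381 and 360 CPM in treated ECM. Control 4 and ECM 3 were lowest and all treated libraries lay above all controls. Its log2 fold change of 0.77 ± 0.38 in that comparison had an edgeR adjusted p of 0.450, and without control 4, ECM 2 and ECM 3 it was 0.50 ± 0.11 (edgeR adjusted p = 0.0323). Control 4 and ECM 3 were again lowest in Cox6a1, with 299, 309, 275 and 110 CPM in controls, 305, 278, 119 and 372 CPM in ECM, and 406, 380, 383 and 397 CPM in treated ECM. Its log2 fold change was 0.66 ± 0.34 (edgeR adjusted p = 0.461), and 0.40 ± 0.09 (edgeR adjusted p = 0.0379) without those libraries.

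Several subunits of complex IV exist as a widely expressed form and a form known from muscle, testis or lung, and the widely expressed forms dominated here. Cox4i1 stood at 345 CPM per kb and Cox4i2, known as a lung form that responds to low oxygen, at 2.52. Cox6a1 stood at 431 CPM per kb and the muscle form Cox6a2 at 7.87, Cox6b1 at 192 and the testis form Cox6b2 at 1.82, and Cox7a2 at 124 and the muscle form Cox7a1 at 2.68. Cox7b stood at 112 CPM per kb. Ndufa4, at 157 CPM per kb, likewise exceeded Ndufa4l2, known as a target of the hypoxia response, at 1.80. The low forms rest on few reads, so their differences are uncertain.

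Cox4i2 and Ndufa4l2 had their lowest libraries among controls. Cox4i2 had 1.92, 1.31, 1.31 and 1.09 CPM in controls, 2.33, 3.64, 2.46 and 2.05 CPM in ECM, and 1.90, 1.67, 1.84 and 2.28 CPM in treated ECM. Every ECM library lay above every control, with a log2 fold change of 0.88 ± 0.28 (edgeR adjusted p = 0.0685), and 0.51 ± 0.30 (edgeR adjusted p = 0.268) without control 4, ECM 2 and ECM 3. Ndufa4l2 was fitted without treated 4, whose value is displaced in the table, and had 1.55, 2.07, 1.02 and 0.82 CPM in controls, 2.48, 2.55, 2.30 and 2.05 CPM in ECM, and 2.64, 1.94 and 2.22 CPM in treated ECM. ECM 4 overlapped the controls. In ECM against control the log2 difference was 0.77 ± 0.30 (edgeR adjusted p = 0.149). Leaving out control 4, ECM 2 and ECM 3 gave 0.53 ± 0.34 (edgeR adjusted p = 0.308). The means of the other low forms in control, ECM and treated ECM were 4.40 ± 0.152, 5.34 ± 1.54 and 6.31 ± 1.55 CPM for Cox6a2 (SD, n = 4 each), 2.27 ± 0.562, 1.27 ± 0.921 and 2.52 ± 0.786 CPM for Cox6b2, and 0.895 ± 0.570, 1.37 ± 0.946 and 2.04 ± 0.494 CPM for Cox7a1. None of these was called. The widely expressed partners Cox4i1 (489 ± 38.4, 561 ± 70.8 and 554 ± 29.6 CPM), Cox7b (127 ± 18.3, 139 ± 36.0 and 141 ± 10.9 CPM) and Ndufa4 (198 ± 18.5, 236 ± 88.9 and 218 ± 19.7 CPM) were not called either. Cox7a2 had 106 ± 1.59, 122 ± 39.0 and 124 ± 8.19 CPM and Cox6b1 116 ± 39.5, 120 ± 40.9 and 172 ± 10.6 CPM, and both had every treated library above every control.

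No member of ATP synthase was called. Atp5b had between 1168 and 1507 CPM in all 12 libraries, with log2 fold changes of 0.06 ± 0.13, -0.02 ± 0.13 and 0.04 ± 0.13. Atp5c1 averaged 240 ± 26.3, 263 ± 56.9 and 215 ± 12.6 CPM in control, ECM and treated ECM (SD, n = 4 each). The small subunits of the F1 shaft, Atp5d (delta) and Atp5e (epsilon), stood apart from these. Atp5e had 64.6, 66.6, 48.7 and 19.2 CPM in controls, 40.8, 51.3, 17.5 and 73.0 CPM in ECM, and 110, 102, 96.7 and 112 CPM in treated ECM. All treated libraries lay above all others. On the log2 scale it differed by 1.20 ± 0.40 in treated ECM against ECM (edgeR adjusted p = 0.0775) and 1.08 ± 0.39 in treated ECM against control (edgeR adjusted p = 0.318). Leaving out control 4, ECM 2 and ECM 3 gave 0.87 ± 0.21 (edgeR adjusted p = 0.0204) and 0.80 ± 0.18 (edgeR adjusted p = 0.0400). Atp5d had 179, 184, 142 and 42.8 CPM in controls, 140, 128, 64.0 and 181 CPM in ECM, and 218, 226, 218 and 228 CPM in treated ECM, again with control 4 and ECM 3 lowest. Between treated ECM and control its log2 fold change was 0.70 ± 0.38 (edgeR adjusted p = 0.474), and 0.40 ± 0.12 (edgeR adjusted p = 0.109) without the 3 libraries.

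Atp5k, the membrane subunit e that takes part in pairing ATP synthases, differed widely between libraries of one group. It had 32.9, 30.0, 10.6 and 6.56 CPM in controls, 8.65, 7.43, 8.10 and 49.5 CPM in ECM, and 59.4, 56.1, 54.0 and 66.5 CPM in treated ECM. Controls 3 and 4 and ECM 1 to 3 were low, and all treated libraries lay above all others. Fold changes on the log2 scale were 1.67 ± 0.63 in treated ECM against ECM (edgeR adjusted p = 0.114) and 1.56 ± 0.62 in treated ECM against control (edgeR adjusted p = 0.373). Without ECM 4, the high library of its group, the first was 2.87 ± 0.48 (edgeR adjusted p = 0.00512), and without control 4, ECM 2 and ECM 3 it was 0.99 ± 0.56 (edgeR adjusted p = 0.254). Atp5h (subunit d of the stalk) and Atp5j (coupling factor 6) ran against Atp5k in control 4. Atp5h had 43.6, 48.1, 53.6 and 114 CPM in controls, 54.5, 105, 117 and 62.2 CPM in ECM, and 67.9, 61.9, 58.2 and 68.8 CPM in treated ECM, so that control 4, ECM 2 and ECM 3 were its highest libraries. Atp5l, subunit g, had 2.45, 2.50, 2.48 and 2.46 CPM in controls, 2.78, 6.35, 3.65 and 4.45 CPM in ECM, and 4.50, 3.08, 2.92 and 3.68 CPM in treated ECM. All ECM and treated libraries lay above all controls, with a log2 fold change of 0.80 ± 0.27 in ECM against control (edgeR adjusted p = 0.0842), and 0.56 ± 0.28 (edgeR adjusted p = 0.195) without control 4, ECM 2 and ECM 3.

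**Figure D3:**
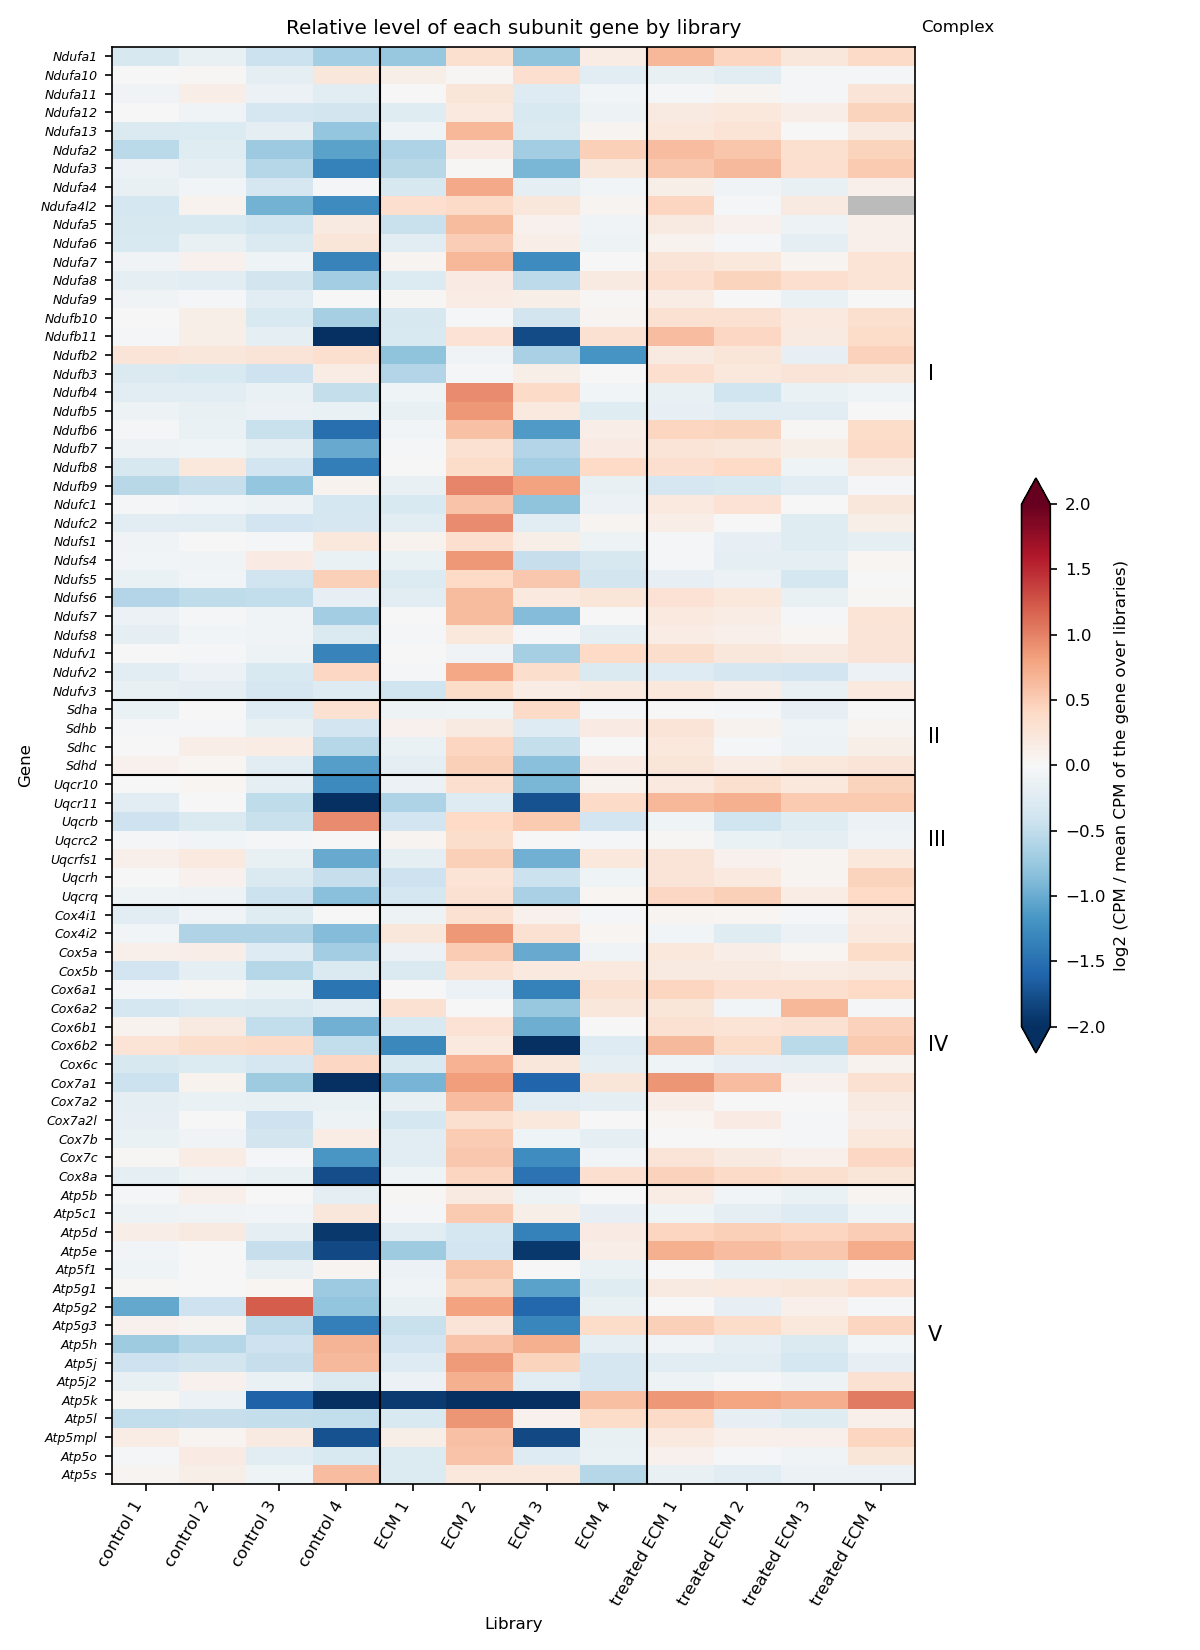
Level of 77 of the 78 subunit genes (rows, by complex) in each library (columns), as the log2 ratio of its CPM to its own mean over libraries. Red is above and blue below that mean, grey marks the displaced value left out, and colours stop at -2 and 2; control 4 and ECM 3 hold most of the dark blue cells, ECM 2 is red in most rows, and treated 1, 2 and 4 are light red in most rows.

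Summed over the members, a description of their joint level, 77 genes (without Ndufa4l2) held 8570 ± 599 CPM in control, 9588 ± 1684 in ECM and 10127 ± 565 in treated ECM (SD, n = 4 each). Treated libraries ranged from 9392 to 10577 CPM and controls from 7972 to 9312, so that these groups did not overlap, while ECM ranged from 8246 to 11988. Complex I summed to 2510 ± 141, 2917 ± 580 and 2978 ± 181 CPM, and complex IV to 1938 ± 172, 2254 ± 474 and 2507 ± 96.9 CPM. Complex II had 754 ± 55.5, 803 ± 51.4 and 785 ± 42.6 CPM, and complex III 639 ± 87.7, 692 ± 156 and 813 ± 50.1 CPM. Complex V had 2729 ± 201, 2922 ± 483 and 3044 ± 205 CPM. For complexes I, III and IV all treated libraries lay above all controls, and for complexes II and V they overlapped. Abundant genes set these sums, Atp5b foremost in complex V. Without control 4, ECM 2 and ECM 3 the 77 genes averaged 8770 CPM in 3 controls, 9060 in 2 ECM libraries and 10127 in treated ECM, so that ECM stood at 1.03 times control and treated ECM at 1.15 times control.

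**Figure D4:**
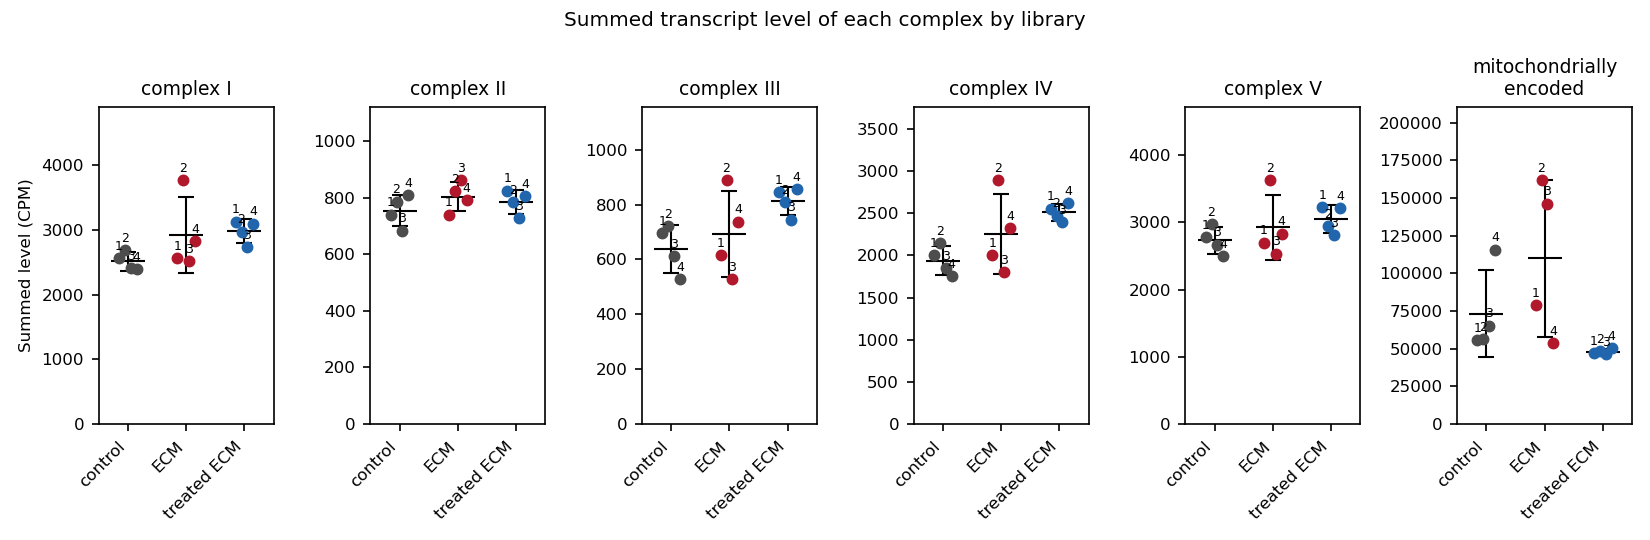
Summed CPM (y axis, from 0) of the nuclear members of each complex and of the mitochondrially encoded subunits in the 12 libraries by group (x axis). Points are libraries labelled with their number, and bars are the mean and SD of 4 libraries; ECM 2 is the highest point of its group in every panel except complex II, and the mitochondrially encoded sum is high in control 4, ECM 2 and ECM 3.

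The libraries that stood apart did so in a gene-dependent way. Each library was set against the mean of the other 3 of its group. In control 4, 19 of 77 members (24.7%) lay below 0.5 times that mean, where 16.0% of all genes did, and in ECM 3, 21 members (27.3%) did, where 12.1% of all genes did. The lists shared 16 genes, which is 84.2% of the first and 76.2% of the second. Such sharing was not limited to the members: over the genes tested, deviations of ECM 3 and control 4 from their group means had a correlation of 0.726. In ECM 2, 39 of 77 members (50.6%) lay above 1.5 times the mean of the other ECM libraries, where 17.5% of all genes did. Control 4 held the lowest value of 31 members and ECM 2 the highest of 40. Such counts were not made over all genes. Across members, the deviation of control 4 had a Spearman correlation of -0.43 with GC content (77 genes, which share the library), against -0.68 over 13742 genes tested. The part of library quality or of dissection in these deviations was not tested.

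**Figure D5:**
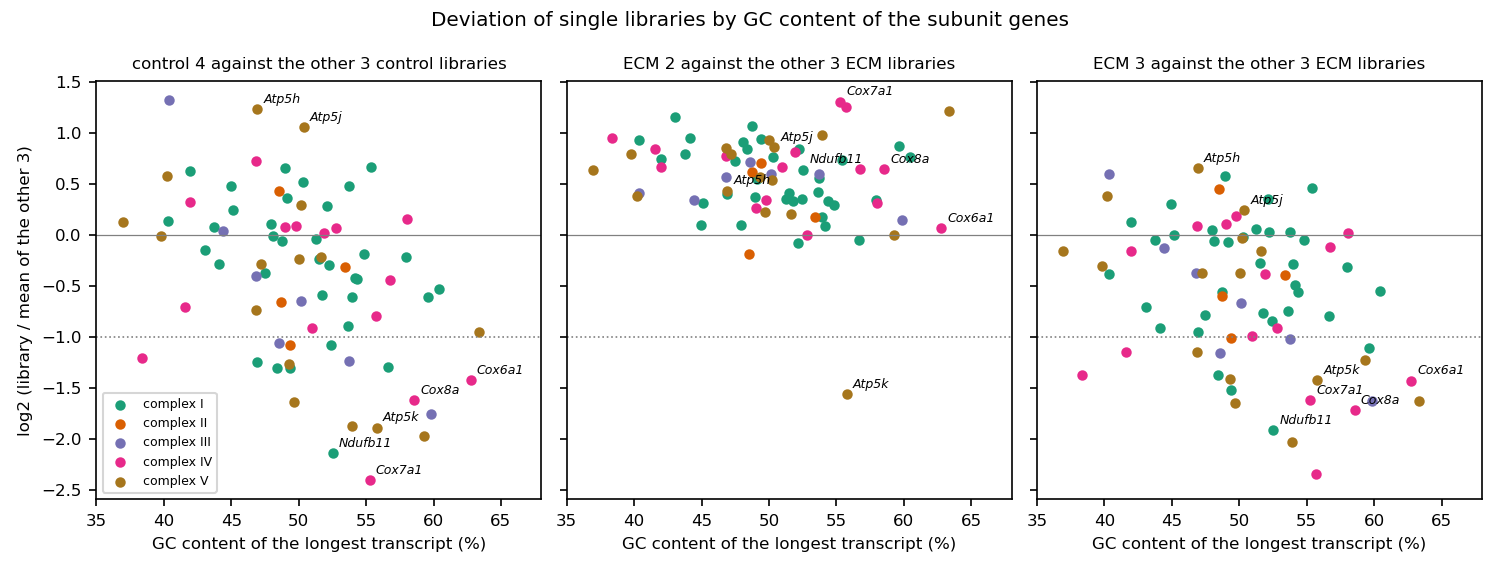
Log2 ratio of a library to the mean of the other 3 of its group (y axis) against GC content of the longest transcript in percent (x axis), for 77 subunit genes in control 4, ECM 2 and ECM 3. Points are genes coloured by complex and the dotted line marks a ratio of 0.5; Atp5h lies above 0 and Cox8a and Cox6a1 far below it in control 4 and ECM 3, while 71 of 77 genes lie above 0 in ECM 2.

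The subunits encoded by mitochondrial DNA are partners of the nuclear ones in every complex but complex II. Their summed level was 55571, 56259, 65356 and 115856 CPM in controls, 79156, 161859, 146233 and 53543 CPM in ECM, and 46921, 48519, 46241 and 50376 CPM in treated ECM. All treated libraries lay below all others, and control 4, ECM 2 and ECM 3 were the highest of all. Of 12 tested, 1 (mt-Nd6, log2 fold change 1.33 ± 0.36, edgeR adjusted p = 0.0331) rose in ECM against control, where 7.00% of all genes were called higher. Between treated ECM and ECM 6 fell, where 5.07% of all genes were called lower. Among them were mt-Nd6 (-1.75 ± 0.37, edgeR adjusted p = 0.0119) and mt-Nd5 (-1.37 ± 0.26, edgeR adjusted p = 0.00706). Another was mt-Atp6, which averaged only 15.3, 33.2 and 8.40 CPM in control, ECM and treated ECM, against 8354 CPM in controls for mt-Nd1. Its low value, like those of the nearly empty genes above, is not read as low expression. In treated ECM against control 0 of the 12 were called, where 2.04% of all genes were. Median log2 fold changes were 0.73, -1.31 and -0.52, where those of the nuclear members were 0.19, 0.07 and 0.32. Both sets thus had a median above 0 in ECM against control, and the difference between them was not tested. Without control 4, ECM 2 and ECM 3 the mitochondrially encoded sum averaged 59062, 66349 and 48014 CPM, treated ECM stood at 0.724 times ECM in place of 0.436 times, and the medians were 0.16, -0.43 and -0.29. The calls were then 0 in ECM against control and 4 lower in treated ECM against ECM, among them mt-Nd5 (-0.86 ± 0.15, edgeR adjusted p = 0.00601) and mt-Nd1 (-0.59 ± 0.12, edgeR adjusted p = 0.00865), and 0 in treated ECM against control. Of all genes, 18.8%, 15.4% and 3.17% were then called in these comparisons, in either direction. In ECM against control mt-Nd6 then differed by 0.52 ± 0.20 (edgeR adjusted p = 0.0963).

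Other genes of the pathway were mostly not called, and the counts are to be read against the shares of all genes called higher and lower in each comparison, given above. Of 41 assembly factors, 2 fell in ECM against control: Bcs1l, which inserts the Rieske protein into complex III (-0.63 ± 0.15, edgeR adjusted p = 0.0175), and Tmem126b, an assembly factor of complex I (-0.59 ± 0.15, edgeR adjusted p = 0.0246). With treatment, 3 rose against ECM: Bcs1l (0.74 ± 0.15, edgeR adjusted p = 0.0115), Coa6, which helps deliver copper to complex IV (0.97 ± 0.19, edgeR adjusted p = 0.00749), and Coa3 (0.60 ± 0.16, edgeR adjusted p = 0.0365). None was called in treated ECM against control. The 16 genes of the citric acid cycle and pyruvate dehydrogenase, the 8 carriers and porins of the mitochondrial membranes and the 12 regulators of mitochondrial biogenesis, such as Ppargc1a and Tfam, had 0 calls in every comparison by edgeR. At an unadjusted p below 0.05, edgeR had 1, 3 and 0 of the first, 0, 1 and 0 of the second and 2, 5 and 0 of the third. Without control 4, ECM 2 and ECM 3, 18.8%, 15.4% and 3.17% of all genes were called in the 3 comparisons, in either direction. In that fit 2 of the regulators were called lower in ECM against control and 1 higher in treated ECM against ECM. Of the assembly factors 2 were higher and 5 lower in the first comparison, 8 higher and 1 lower in the second and 1 higher in treated ECM against control.

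Of 18 genes of glycolysis, 2 rose in ECM against control. Pfkfb3, which makes an activator of phosphofructokinase, did so by 1.12 ± 0.20 on the log2 scale (edgeR adjusted p = 0.00207) and was also higher in treated ECM against control (1.15 ± 0.20, edgeR adjusted p = 0.00540). Gapdh, with its few reads, was the other (0.92 ± 0.21, edgeR adjusted p = 0.0115), and it fell in treated ECM against ECM (-0.84 ± 0.21, edgeR adjusted p = 0.0270). Of 75 mitochondrial ribosomal protein genes, Mrpl41 rose in ECM against control (1.16 ± 0.20, edgeR adjusted p = 0.00153), 5 rose and 1, Mrpl41, fell in treated ECM against ECM, and 0 were called in treated ECM against control. Of 76 cytosolic ribosomal protein genes, another set of short transcripts, 5 rose in ECM against control, a share near the 7.00% of all genes called higher there, 1 rose and 1 fell in treated ECM against ECM, and 0 were called in treated ECM against control. Their median log2 fold changes were 0.49, -0.11 and 0.39, and 73, 32 and 63 of the 76 had a log2 fold change above 0. At an unadjusted p below 0.05, edgeR had 35, 18 and 21 of them, with 22.7%, 25.9% and 11.4% of all genes. With control 4, ECM 2 and ECM 3 left out, 15 of the cytosolic genes were higher in ECM against control, 1 in treated ECM against ECM and 8 in treated ECM against control, where 18.8%, 15.4% and 3.17% of all genes were called in either direction. Of the mitochondrial genes 2 were then higher and 5 lower in ECM against control, 10 higher and 1 lower in treated ECM against ECM, and 2 higher in treated ECM against control.

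Cell type markers moved between the same groups. None of 8 neuron markers was called in any comparison, and their sum was 6921 ± 1269, 7078 ± 1124 and 5967 ± 272 CPM in control, ECM and treated ECM (SD, n = 4 each). The 4 T and NK cell markers tested all rose in ECM against control, fell in treated ECM against ECM and were higher in treated ECM against control. Their sum ranged from 0 to 0.313 CPM in controls, 64.2 to 131 CPM in ECM and 11.97 to 32.0 CPM in treated ECM. The 4 monocyte markers had the same calls in all 3 comparisons, with sums of 7.89 to 9.57, 80.6 to 182 and 31.6 to 56.6 CPM. Of 5 endothelial markers, 3 rose in ECM and 2 fell in treated ECM against ECM. Of 3 erythroid markers, 2 fell in ECM against control and 2 rose in treated ECM against ECM, with sums of 10.7 to 42.9, 0 to 0.677 and 12.3 to 77.1 CPM. Markers of astrocytes (2 of 5 rose in ECM and 2 fell with treatment), microglia (1 of 5 rose and 1 fell in ECM), and pericytes and smooth muscle (2 of 6 rose in ECM and 1 fell with treatment) had fewer calls. None was called among 5 oligodendrocyte, 8 cerebellum and 4 muscle markers. The part of cell composition in the levels of the subunit genes was not tested.

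Promoters of the members were searched for 3 motifs of factors known to regulate mitochondrial genes. Windows of 300 bases, from 250 before to 50 after the start, were taken from RefSeq for GRCm38.p6 and matched 64 of the 78 by symbol. Both strands were searched, and no member's promoter held more than 1 kind of motif. The palindromic NRF1 motif of 10 bases was held by 4 members (6.25%, against 0.971% of 32851 promoters), the GABPA or ETS motif CCGGAAGT by 4 (6.25% against 3.89%) and the YY1 motif AAGATGGC by 9 (14.1% against 2.75%). Any of them was held by 17 (26.6% against 7.32%). The YY1 matches began between bases 248 and 289 of the window, whose transcribed part follows base 250. The next promoters show 1 example of each motif in genes whose values are given above, written 5′ to 3′ along the gene with the motif, or its reverse complement, in capitals. Ndufs6 (chr13:73328433-73328732, minus strand) has the YY1 letters just after its start, Cox6a1 (chr5:115348909-115349208, minus strand) has the NRF1 letters upstream, and Cox8a (chr19:7217567-7217866, minus strand) has the ETS letters at a pair of places around its start.
Ndufs6: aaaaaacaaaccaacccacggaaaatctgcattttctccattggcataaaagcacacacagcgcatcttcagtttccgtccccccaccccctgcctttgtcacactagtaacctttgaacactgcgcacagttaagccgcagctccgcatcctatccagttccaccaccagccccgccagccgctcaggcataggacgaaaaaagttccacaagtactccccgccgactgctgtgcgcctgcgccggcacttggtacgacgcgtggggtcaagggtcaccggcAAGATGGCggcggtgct
Cox6a1: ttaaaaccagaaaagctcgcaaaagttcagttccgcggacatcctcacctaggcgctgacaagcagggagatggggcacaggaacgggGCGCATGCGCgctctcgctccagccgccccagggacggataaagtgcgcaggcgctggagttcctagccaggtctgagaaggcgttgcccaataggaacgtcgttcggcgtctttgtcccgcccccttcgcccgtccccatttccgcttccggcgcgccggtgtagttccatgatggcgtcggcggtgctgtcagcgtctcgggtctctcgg
Cox8a: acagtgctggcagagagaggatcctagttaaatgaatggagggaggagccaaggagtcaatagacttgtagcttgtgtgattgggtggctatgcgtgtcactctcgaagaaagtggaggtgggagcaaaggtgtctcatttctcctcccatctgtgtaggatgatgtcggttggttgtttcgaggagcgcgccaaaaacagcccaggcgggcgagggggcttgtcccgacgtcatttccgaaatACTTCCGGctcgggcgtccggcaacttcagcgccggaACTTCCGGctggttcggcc
A match describes letters only and shows no binding. The genes of these factors were not called: Nrf1 had log2 fold changes of -0.10 ± 0.18, 0.16 ± 0.18 and 0.06 ± 0.18 in the 3 comparisons, Gabpa -0.23 ± 0.24, -0.12 ± 0.24 and -0.35 ± 0.24, and Yy1 -0.33 ± 0.13, 0.38 ± 0.13 and 0.05 ± 0.13.

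In the authors' deposited table of treated ECM against control, 5 members are listed: Ndufa2 (log2 fold change 1.10, adjusted p 6.68e-07), Atp5k (1.55, 0.00998), Atp5e (1.07, 0.0249), Uqcr11 (1.12, 0.0258) and Cox7a1 (1.17, 0.172). The authors' deposited table of treated ECM against ECM lists Atp5e alone (1.19, 0.00690), and that of ECM against control lists no member. Every entry in these tables has an absolute log2 fold change of at least 1 and an unadjusted p below 0.05, so that changes of the size found here for Ndufs6 and Ndufb2 could not appear in them. The sources used here do not name the tool behind these p-values.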

How the data were processed

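Brain RNA of 12 libraries in 3 groups of 4 was sequenced. Per the labels' protocols, brains were kept in RNAlater, Trizol served for extraction and a NEBNext Ultra kit for the libraries. Trimmomatic, FastQC, STAR and HTSeq on mm10 are named in the submitters' processing notes, without versions or annotation. The authors deposited whole read counts per gene, unscaled, and 3 tables of comparisons with log2 fold changes, p-values, a normalized signal and FPKM, per the file headers. The deposited signal and FPKM were not used.

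In 2212 genes with names of 8 or more characters the long name displaced the values, which were put back in their columns. Treated 4 is left out for these genes, of which Ndufa4l2 is a member. That value differed from the authors' tables in 32 of 33 such genes in one table and 77 of 85 in another, and 0 values differed elsewhere. Another 26 names had become unusable.

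After TMM scaling and the filterByExpr filter, the 3 groups entered a single quasi-likelihood fit in edgeR 4.0.16 under R 4.3.3, from which each comparison was a contrast. A gene was called at a Benjamini-Hochberg adjusted p below 0.05, taken over 14621 genes. Scripts were tested on simulated counts. CPM used TMM-scaled library sizes. Lengths, GC content and coordinates came from GENCODE M21 on GRCm38 (21871 genes matched by symbol). Library totals of 13342177 to 18886822 reads set the counting precision.

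Named with values were the 2 highest and the lowest member of each complex per kilobase of exon union, called members, isoform pairs, complex II, core subunits of complex I, the members nearest the threshold, and at most 4 called genes per comparison of each other list. Members and lists were chosen with earlier results of these data known. Alternatives were DESeq2 1.42.0, other scalings and filters, fits of 2 groups only, a replicate block, a GC covariate, all 12 libraries for displaced names, and each library left out. The planned comparison of isoform proteins was not run, and 1 member is not reported by name here.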

Additional observations from a re-analysis of the deposited data

Results flagged for a closer look

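Of 119 groups of 4 libraries checked, 13 held a library far from the others, by Dixon's ratio of its gap to the nearest library over the group's range. Chance alone flags about 1 in 20 such groups, and the genes are not independent of each other. Control 4 accounted for 7 of them. The summed level of mitochondrially encoded subunits was 115856 CPM there against 55571 to 65356 in the other controls, and Atp5c1 was 279 CPM against 222 to 230. In the same library Cox6a1 was low at 110 CPM (others 275 to 309), Cox8a at 89.4 CPM (266 to 283), Ndufs7 at 59.99 CPM (88.8 to 94.1), Ndufv1 at 51.6 CPM (122 to 130) and Cox6b2 at 1.43 CPM (2.45 to 2.63). ECM 2 was high for Cox7a2, at 181 CPM against 100.01 to 106, and for Cox7b, at 192 CPM against 116 to 128. Sdha was high in ECM 3, at 663 CPM against 477 to 497, and low in treated 3, at 456 CPM against 500.3 to 507. The other 2 were Atp5g2 in control 3, at 3.29 CPM against 0.693 to 1.06, and Cox6b1 in treated 4, at 188 CPM against 165 to 169.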

How the results depend on the processing

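Counts of called members were small and changed with the setting. Higher in ECM against control were 1 as reported, 5 with DESeq2, 2 with upper-quartile scaling, 6 with the GC covariate, 0 with only the 2 groups fitted, 2 without control 4, ECM 2 and ECM 3 together (chosen after seeing the data), and 0 to 4 on leaving out single libraries (4 without ECM 1, 3 without control 4, 0 without any of controls 1 to 3 or ECM 2). Over all genes 10.3% were called in that comparison as reported, 13.7% with DESeq2, 20.4% with the GC covariate, 6.06% with the 2 groups alone, 6.85% with the replicate block and 18.8% without the 3 libraries. These shares of all genes, and those that follow, count calls in either direction. Lower there were 1 as reported, 0 with the 2 groups alone, 2 without the 3 libraries and 0 to 1 without single libraries. Higher in treated ECM against ECM were 1 as reported, 2 with DESeq2, 0 with upper-quartile scaling, 2 with the GC covariate, 0 with the 2 groups alone, 7 without the 3 libraries and 0 to 5 without single libraries (5 without ECM 4, 1 without ECM 2, 0 in the other 6 fits), where 8.40% of all genes were called as reported, 14.7% with DESeq2, 10.6% with the GC covariate, 15.4% without the 3 libraries and 13.4% without ECM 4. Lower there were 0 as reported and 0 to 1 without single libraries (1, Ndufb9, without ECM 4). Higher in treated ECM against control were 1 as reported, 4 with DESeq2, 0 with the GC covariate, 4 with the 2 groups alone, 11 without the 3 libraries and 0 to 1 without single libraries (1 without control 2, 0 in the other 7 fits), where 2.04% of all genes were called as reported, 3.11% with DESeq2, 2.14% with the 2 groups alone and 3.17% without the 3 libraries. With the replicate block, every one of these counts was 0. Same-numbered libraries did not deviate together (correlations from -0.656 to 0.314), so the numbers are not read as pairs. Over 17 alternatives per comparison, Ndufb2 kept its call 12 times in ECM against control and 7 in treated ECM against ECM, Ndufs6 10 and Ndufa2 8, in each case with the same direction. The count of members with every treated library above every control was 31 to 41 over all settings tried. The count with every treated library above every ECM library was 9 as reported, 25 without ECM 2 and 27 without the 3 libraries. Medians over the members ranged from 0.04 to 0.28 in ECM against control, -0.01 to 0.24 in treated ECM against ECM and 0.24 to 0.38 in treated ECM against control on leaving out single libraries, so the first is near 0 without ECM 2 and the second changes sign without ECM 3. The SD of the library medians was 0.30 in ECM, 0.15 in control and 0.10 in treated ECM on the log2 scale. Forms at 1 to 6 CPM rest on few reads. The cause of these changes was not tested.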
